A study of Mus musculus with 12 samples.

Results

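The transcripts described here come from 10 genes that set or read out secretory fate in the gut epithelium: the fate factors Atoh1, Spdef, Gfi1, Neurog3 and Klf4, the Notch target Hes1, the receptors Notch1 and Notch2, and the ligands Dll1 and Dll4. They were found by gene symbol among 35241 genes, and the values of the 41 transcripts listed for them were summed per gene. RNA came from full-thickness distal colon of 12 mice. Both of the 2 litters, A and B, gave 3 mice per genotype. Spry2IEKO mice carry Vil1::Cre and homozygous floxed Spry2 (Spry2-f/f), so that Cre, driven by the villin promoter, deletes Sprouty2 in the intestinal epithelium. Spry2FF mice are littermates with Spry2-f/f and no Cre, so floxed alleles are shared by both groups of 6 and a Cre control is not. The Spry2FF group held 3 males and 3 females. The Spry2IEKO group held 1 male and 5 females, so sex and genotype are partly mixed. The deposited labels give an age of 6 weeks for rearing and 8 weeks for tissue collection.

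Notch signaling decides between absorptive and secretory fate by contact between neighboring cells. Ligands such as Dll1 and Dll4 on a secretory precursor engage Notch1 or Notch2 on the next cell, the cleaved receptor joins Rbpj in the nucleus, and repressors such as Hes1 are switched on. Hes1 holds down Atoh1, the factor that every secretory lineage needs. Downstream of Atoh1, Spdef and Klf4 serve goblet cell maturation, Gfi1 favors goblet over endocrine fate, and Neurog3 starts the enteroendocrine lineage. Klf4 is also abundant in mature surface cells of the colon, and Notch1, Notch2 and Dll4 are used by endothelium and leukocytes as well.

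The deposited values are TPM, transcript abundances corrected for transcript length and library size, after a further scaling across mice, and are called normalized TPM here. Their totals ran from 918257 to 1068550 per mouse. They are not read counts and do not carry the number of reads behind each value, so no counting error is given. Spry2, the deleted gene (ENSMUSG00000022114, chromosome 14, 105891947 to 105896819), served to check the labels. It ran from 18.5 to 22.5 in Spry2IEKO mice and from 22.8 to 32.3 in Spry2FF mice, without overlap (log2 difference -0.45, adjusted p = 0.16 by limma). All 63 genes of 10 cell type marker lists were above 0 in some mouse, including those of epithelium, smooth muscle, endothelium and leukocytes, as a full-thickness sample would hold.

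Normalized TPM takes transcript length into account, so levels, here sums of all transcripts, can be compared between genes. Klf4, a zinc finger factor, was by far the most abundant at 293.1 ± 42.4 (SD, n = 12). Hes1 followed at 97.9 ± 17.3 (SD, n = 12), Atoh1 at 33.6 ± 7.05 (SD, n = 12) and Spdef at 28.2 ± 6.49 (SD, n = 12). In all 12 mice Klf4 exceeded Hes1 and Hes1 exceeded Atoh1, and neither step had overlapping values. Atoh1 was above Spdef in 10 of 12 mice, and their ranges overlapped. Dll1 came next at 15.5 ± 2.71 (SD, n = 12), below Spdef in all 12 mice and without overlap. Dll1 and the 5 genes below it overlapped each with the next. These 5 were Notch1 at 7.89 ± 3.53, Dll4 at 5.82 ± 2.1, Gfi1 at 4.02 ± 1.58, Notch2 at 3.83 ± 1.01 and Neurog3 at 1.17 ± 0.735 (SD, n = 12 each). Gfi1 exceeded Notch2 in 6 of 12 mice, so these levels had no order. Klf4 varied least between mice, with a coefficient of variation of 14.5%, and Neurog3 most, at 63.1%.

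What the annotation counts as part of a gene mattered for 3 of the 10. By the biotypes of GENCODE M21 on GRCm38, transcripts without a coding sequence made up 57.6% of the Spdef sum, 56.1% of the Dll1 sum and 48.8% of the Notch1 sum. For Spdef (ENSMUSG00000024215, chromosome 17, 27714352 to 27728955, minus strand) nearly all of this was the retained-intron transcript ENSMUST00000127622.1. It ran from 9.88 to 24.3 across the 12 mice, and the main coding transcript ENSMUST00000025054.8 from 6.16 to 16.4. Atoh1 (ENSMUSG00000073043, chromosome 6, 64729125 to 64731245, plus strand) has a single annotated transcript of 1 exon. Gfi1 (ENSMUSG00000029275, chromosome 5, 107716657 to 107726036, minus strand) has 4 coding transcripts, 2 of them nearly equal in length at 2639 and 2648 bases. The shorter was above 0.5 in 8 mice and the longer in 4, never in the same mouse, so the sum of all 4 is used for this gene.

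The first comparison asked whether loss of epithelial Sprouty2 goes with other levels of these factors. Of the 10 genes, 8 averaged higher and 2 lower in Spry2IEKO mice, and none passed an adjusted p of 0.05 by limma over the 15880 genes whose mean reached 0.5. All 10 were among those genes. Of all genes tested, 0.0315% passed, and 52.1% averaged higher. No gene of the 10 separated the genotypes without overlap, as 0.403% of all genes did. An unadjusted p under 0.05 was reached by 3 of the 10, all higher in Spry2IEKO mice, against 6.18% of all genes in either direction. In that direction 477 of the 15880 genes passed. The median log2 difference of the 10 genes was 0.27, against 0.0076 for all genes.

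Atoh1, the master factor of secretory fate, had a lowest value of 27.9, a median of 39.6 and a highest of 42.1 in Spry2IEKO mice, and of 23.6, 27.4 and 38.8 in Spry2FF mice. The levels averaged 38.0 ± 5.1 and 29.2 ± 6.08 (SD, n = 6 each). Of the 6 Spry2IEKO mice, 5 were above every Spry2FF mouse, and replicate 8, the male, was within the Spry2FF range. Of these 5, replicate 5 at 38.81 was all but tied with Spry2FF replicate 3 at 38.8. The log2 difference was 0.39 (standard error 0.135, 95% interval 0.0949 to 0.677, unadjusted p = 0.0132, adjusted p = 0.693 by limma). Litter A alone gave 0.28 and litter B alone 0.49.

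Gfi1, a zinc finger repressor, gave the largest log2 difference of the 5 fate factors by summed transcripts, and 0.25 by its highest transcript alone, where Atoh1 gave 0.39 and Spdef 0.32. It ran from 2.96 to 6.99 with a median of 5.04 in Spry2IEKO mice, and from 1.41 to 5.14 with a median of 3 in Spry2FF mice. The groups overlapped, with 3 Spry2IEKO mice above every Spry2FF mouse and 3 Spry2FF mice below every Spry2IEKO mouse. The log2 difference was 0.65 (standard error 0.242, 95% interval 0.13 to 1.17, unadjusted p = 0.0182, adjusted p = 0.733 by limma). The litters taken singly gave 0.68 for A and 0.62 for B.

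Spdef, which drives goblet cell maturation, ran from 21.8 to 37.1 with a median of 34.5 in Spry2IEKO mice and from 20 to 30.9 with a median of 23.3 in Spry2FF mice. Of the Spry2IEKO mice, 4 lay above every Spry2FF mouse. The log2 difference was 0.37 (standard error 0.151, 95% interval 0.0406 to 0.693, unadjusted p = 0.0303, adjusted p = 0.753 by limma). With sex as a covariate it was 0.26, and those of Gfi1 and Atoh1 were 0.53 and 0.38. An exact permutation test of the genotype labels gave unadjusted two-sided p = 0.0281 for Atoh1, 0.0325 for Gfi1 and 0.0563 for Spdef, none of which passed adjustment (adjusted p from 0.792 to 0.822).

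**Figure D1:**
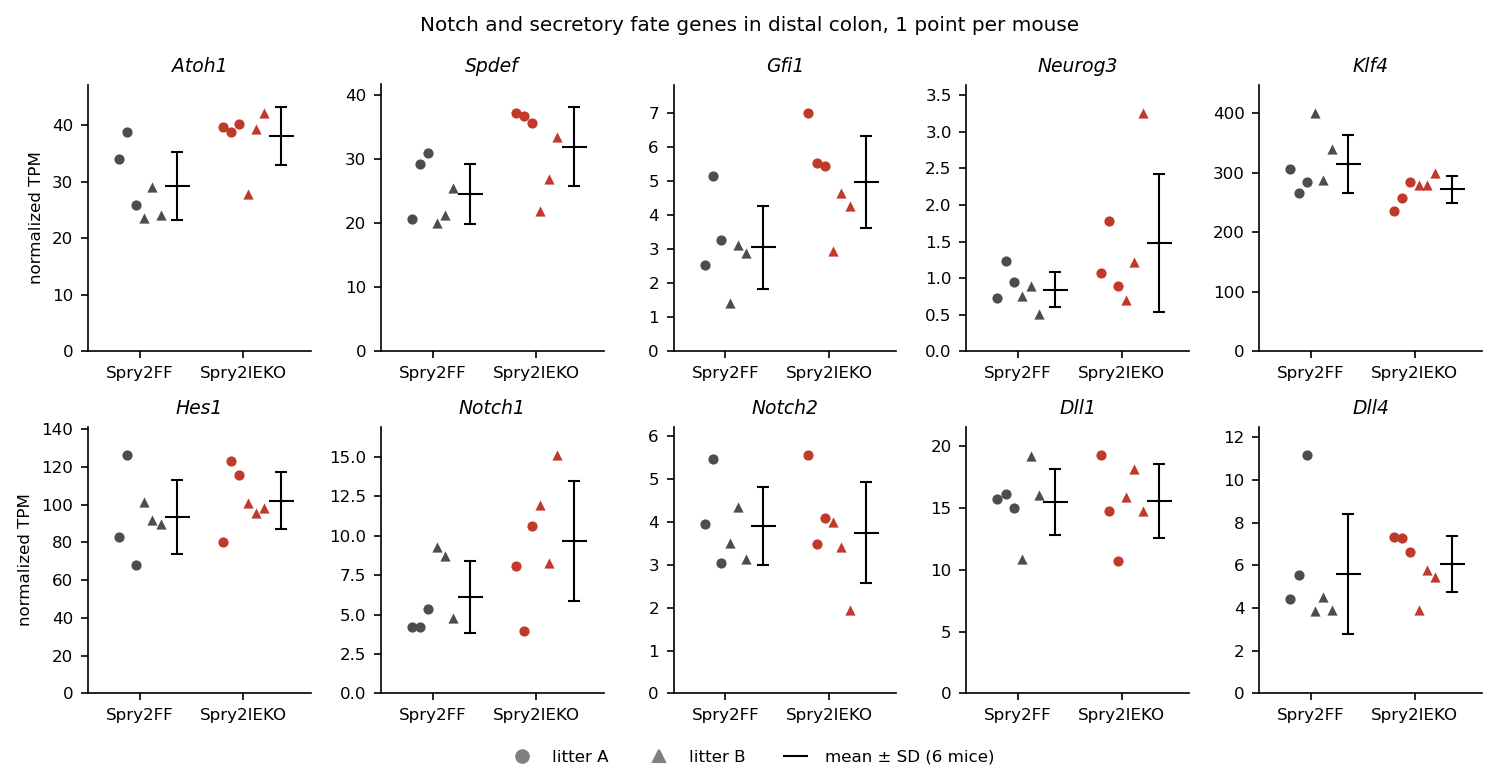
Normalized TPM (vertical axes, from 0) of the 10 genes in each of 6 Spry2FF and 6 Spry2IEKO mice, with circles for litter A, triangles for litter B, and bars for the mean ± SD of each genotype. For Atoh1, 5 of the 6 Spry2IEKO mice lie above every Spry2FF mouse, replicate 5 only barely (38.81 against 38.8), while no gene separates the genotypes fully.

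The remaining genes gave smaller or less even differences. Neurog3, the starter of enteroendocrine fate, ran from 0.696 to 3.25 in Spry2IEKO mice and from 0.516 to 1.23 in Spry2FF mice. Its log2 difference of 0.47 (adjusted p = 0.837 by limma) was 0.26 without Spry2IEKO replicate 12, the mouse at 3.25. Klf4 was the clearest of the 2 genes on the lower side, at 272.2 ± 22.6 in Spry2IEKO and 314 ± 48.9 in Spry2FF mice (SD, n = 6 each). All Spry2IEKO mice but 1 were below the Spry2FF median of 296.9, and the log2 difference was -0.20 (95% interval -0.403 to 0.0098, adjusted p = 0.826 by limma). Without Spry2FF replicate 9, the mouse at 399.8, it was -0.12. Hes1, the Notch effector, had a median of 99.5 in Spry2IEKO and 90.9 in Spry2FF mice, and both groups spread widely, from 80.2 to 123.1 and from 68.3 to 126.3. Its log2 difference was 0.14 (95% interval -0.154 to 0.434, adjusted p = 0.9 by limma), and it was 0.06 without Spry2FF replicate 7, 0.08 without Spry2IEKO replicate 5 and 0.23 without Spry2FF replicate 3. The log2 ratio of Atoh1 to Hes1, taken mouse by mouse, averaged -1.43 ± 0.312 in Spry2IEKO and -1.68 ± 0.304 in Spry2FF mice (SD, n = 6 each), less than 1 SD apart.

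Receptors and ligands showed little difference between the genotypes, apart from Notch1. Notch2, the second receptor of the crypt, ran from 1.94 to 5.56 in Spry2IEKO mice and from 3.05 to 5.47 in Spry2FF mice, and its log2 difference was -0.08 (95% interval -0.521 to 0.36). Dll1 averaged 15.6 ± 3 and 15.5 ± 2.68 (SD, n = 6 each), and its log2 difference was 0.0048 (95% interval -0.316 to 0.326). Dll4 ran from 3.89 to 7.31 in Spry2IEKO mice and, but for Spry2FF replicate 7 at 11.2, from 3.85 to 5.55 in Spry2FF mice. The log2 difference of Dll4 was 0.18 (95% interval -0.329 to 0.683) and, without that mouse, 0.38. It was 0.10 without Spry2FF replicate 9 or 13 and 0.29 without Spry2IEKO replicate 8. These intervals leave room for changes of either sign, so the 3 genes are not shown to be alike in both genotypes.

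In a bulk sample, more cells of a type and more RNA per cell cannot be told apart. Markers of cell types leaned to either side by genotype, but 0 of any list passed an adjusted p of 0.05 by limma. Of all genes, 6.18% had an unadjusted p under 0.05, 52.1% averaged higher and 0.403% did not overlap between the genotypes. All 7 goblet markers were higher in Spry2IEKO mice, 6 of them with an unadjusted p under 0.05 and 0 with an adjusted one by limma. Their summed level ran from 9589 to 18530 in Spry2IEKO and from 8000 to 12130 in Spry2FF mice. All 5 tested tuft markers were higher too, 2 with an unadjusted p under 0.05 and 0 adjusted by limma, and the summed level of the list ran from 15.6 to 33.6 against 8.25 to 14.3, without overlap. Of 7 pan-epithelial markers, 6 were lower, 4 with an unadjusted p under 0.05 and 0 adjusted by limma, with sums of 5381 to 6779 against 6479 to 7939. All 5 absorptive markers were lower, 2 with an unadjusted p under 0.05 and 0 adjusted by limma, with sums of 2017 to 5447 against 2496 to 4106. Enteroendocrine markers were higher for 6 of 7, 1 with an unadjusted p under 0.05. Leukocyte and adipocyte markers were higher for 6 of 6 each, 0 with an unadjusted p under 0.05 by limma. Endothelial markers were higher for 6 of 7. Smooth muscle markers were lower for 5 of 6, as were markers of enteric neurons and glia. In these lists too, 0 had an unadjusted p under 0.05 by limma. The part of these shifts in the differences above was not tested.

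Notch1 (ENSMUSG00000026923, chromosome 2, 26457903 to 26516663, minus strand) was the member whose direction by genotype depended most on which transcripts were counted. The sum of all its transcripts ran from 3.98 to 15.1 with a median of 9.46 in Spry2IEKO mice, and from 4.22 to 9.26 with a median of 5.09 in Spry2FF mice. The log2 difference of the sum was 0.59 (standard error 0.287, unadjusted p = 0.0603, adjusted p = 0.826 by limma). The full-length coding transcript, ENSMUST00000028288.4, with 34 exons and 9488 bases, went the other way. It ran from 2.92 to 4.03 in Spry2IEKO mice and from 4.18 to 5.37 in Spry2FF mice, so every Spry2IEKO mouse was below every Spry2FF mouse. Coding transcripts alone gave a log2 difference of -0.33 (standard error 0.108, 95% interval -0.561 to -0.0982, unadjusted p = 0.00864, adjusted p = 0.722 by limma). The same difference was -0.34 within A, -0.32 within B and -0.35 among females. The exact permutation test gave p = 0.00216, the smallest that 6 mice against 6 can give, and adjusted p = 0.629. Of 13941 genes by coding transcripts, 0.194% were lower in Spry2IEKO mice without overlap. This separation was singled out after the values were seen.

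The difference between the sum and the coding transcript lay in short annotated fragments. Transcripts annotated as noncoding took 57.9 ± 17.8% of the Notch1 sum in Spry2IEKO mice and 18.2 ± 23.7% in Spry2FF mice (SD, n = 6 each). In Spry2IEKO mice most of it was ENSMUST00000148948.7, a spliced processed transcript of 184 bases, at a mean of 5.14 out of 6.15. In Spry2FF mice it was 0.5 out of 1.55. It was above 0 in 5 of 6 Spry2IEKO mice, up to 10.5, and in 1 of 6 Spry2FF mice, at 3. Another short fragment, ENSMUST00000138034.7 of 157 bases, was above 0 in Spry2FF replicate 9 alone, at 4.37. The 184-base transcript is printed because the direction of Notch1 rests on it. On GRCm38 its first exon is chr2:26466076-26466163 and its second chr2:26465471-26465566, both on the minus strand. The lower-case 88 bases are intronic in the coding transcript. The 96 bases in capitals lie wholly within exon 28 of the coding transcript, so reads from this stretch can be assigned to either. The shared stretch includes codons of the membrane-spanning segment of the receptor.

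Notch1 ENSMUST00000148948.7: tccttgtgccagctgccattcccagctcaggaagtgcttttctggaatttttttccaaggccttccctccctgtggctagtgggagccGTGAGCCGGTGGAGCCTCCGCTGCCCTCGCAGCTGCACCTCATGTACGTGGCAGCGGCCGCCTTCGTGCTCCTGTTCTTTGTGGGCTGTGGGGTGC

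**Figure D2:**
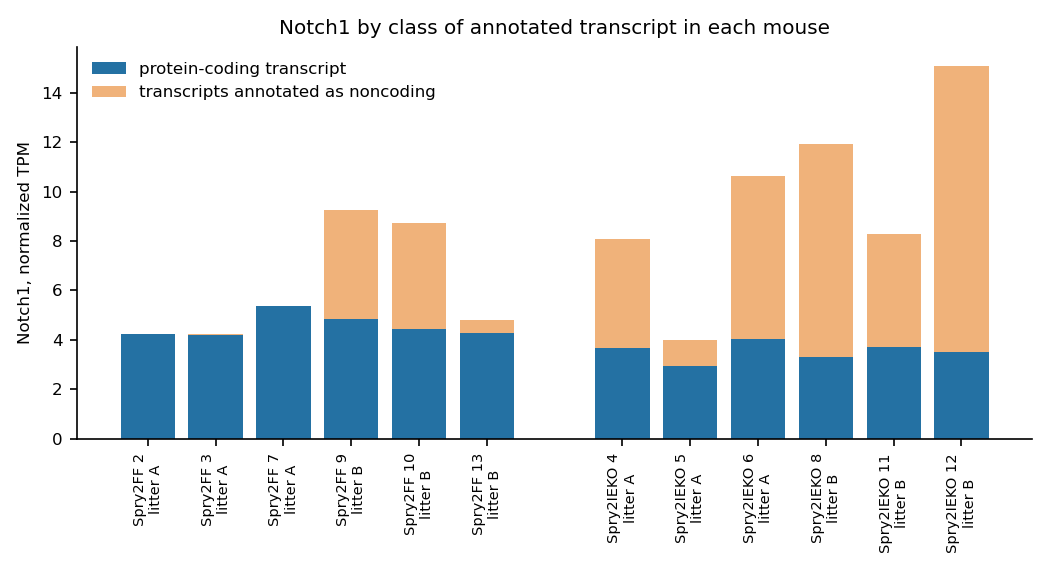
Notch1 in each mouse (normalized TPM, vertical axis from 0), split into the protein-coding transcript (blue) and transcripts annotated as noncoding (orange). The blue part is 2.92 to 4.03 in Spry2IEKO mice and 4.18 to 5.37 in Spry2FF mice, while the orange part reaches 11.6 in Spry2IEKO replicate 12 and is 0 in 2 Spry2FF mice.

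For the other 9 genes the coding transcripts kept the direction of the sum with 1 exception, Dll1, whose log2 difference was -0.08 by coding transcripts and 0.0048 by the sum. Spdef gave 0.37 by either measure, with coding values of 13.6 ± 3.21 in Spry2IEKO and 10.4 ± 2.53 in Spry2FF mice (SD, n = 6 each). Its unadjusted p by coding transcripts was 0.0519 (adjusted p = 0.821 by limma). Dll4 gave 0.31 by coding transcripts and Neurog3 0.30.

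**Figure D3:**
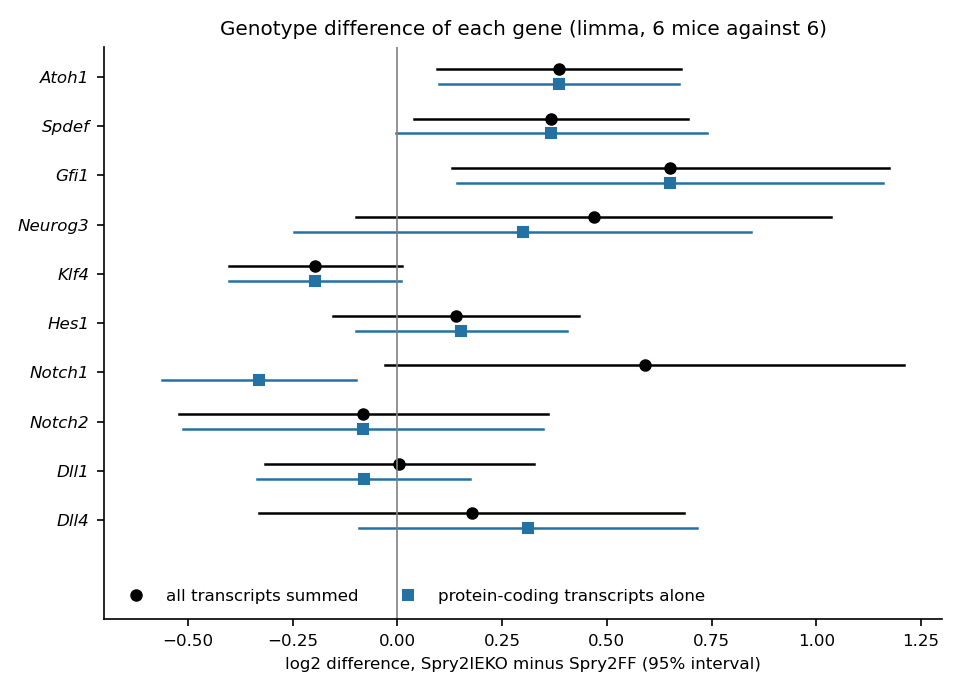
Log2 difference of each gene between 6 Spry2IEKO and 6 Spry2FF mice (horizontal axis) with its 95% interval, for all transcripts summed (black circles) and for protein-coding transcripts alone (blue squares). Both points of Atoh1, Spdef, Gfi1, Neurog3, Hes1 and Dll4 lie above 0, and those of Klf4 and Notch2 below it. Both intervals exclude 0 for Atoh1 and Gfi1 alone. The 2 measures part most for Notch1, at 0.59 and -0.33.

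Promoters of the fate factors were read for letters bound by the pathway. Windows of 250 bases before the start site were at hand for 9 of the 10 genes, from RefSeq on GRCm38.p6, with 11 windows in all. Searched on both strands were TGGGAA, the core bound by Rbpj, CACNAG, the N-box bound by Hes1, and CAGCTG, an E-box form bound by factors such as Atoh1. Of 32851 promoter windows of the same length, 21.6% hold TGGGAA, 36.7% hold CACNAG and 4271 windows hold CAGCTG. No window of these genes held more than 1 match, so no matches overlap. CACNAG was found in the windows of Notch1, Notch2 and Dll4, CAGCTG in those of Neurog3, Klf4 and Dll1, and TGGGAA in that of Spdef. Gfi1 and the 3 genes correlated with it across mice are printed, with any match in capitals. Atoh1 and Gfi1 hold none of the 3 motifs in these windows. Spdef holds TGGGAA at position -22 and Klf4 holds CAGCTG at position -247, counted to the first base of the motif from the start site. The windows are chr6:64728875-64729124 (plus strand) for Atoh1, chr17:27728952-27729201 (minus strand) for Spdef, chr5:107725806-107726055 (minus strand) for Gfi1 and chr4:55532476-55532725 (minus strand) for Klf4. A match says only that the letters are there.

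Atoh1: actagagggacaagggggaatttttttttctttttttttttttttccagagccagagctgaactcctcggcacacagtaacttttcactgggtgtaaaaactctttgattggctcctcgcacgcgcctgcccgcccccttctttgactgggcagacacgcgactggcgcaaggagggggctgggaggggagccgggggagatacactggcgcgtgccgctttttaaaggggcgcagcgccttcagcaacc
Spdef: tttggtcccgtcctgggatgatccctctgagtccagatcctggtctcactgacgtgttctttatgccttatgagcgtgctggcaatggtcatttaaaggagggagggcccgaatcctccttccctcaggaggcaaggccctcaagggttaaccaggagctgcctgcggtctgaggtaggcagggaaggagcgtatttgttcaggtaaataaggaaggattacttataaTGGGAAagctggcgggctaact
Gfi1: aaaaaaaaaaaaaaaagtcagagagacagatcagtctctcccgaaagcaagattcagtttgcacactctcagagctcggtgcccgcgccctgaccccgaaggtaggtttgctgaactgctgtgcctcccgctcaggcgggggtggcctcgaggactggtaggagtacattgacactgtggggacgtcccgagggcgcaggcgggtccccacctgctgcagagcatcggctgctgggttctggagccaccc
Klf4: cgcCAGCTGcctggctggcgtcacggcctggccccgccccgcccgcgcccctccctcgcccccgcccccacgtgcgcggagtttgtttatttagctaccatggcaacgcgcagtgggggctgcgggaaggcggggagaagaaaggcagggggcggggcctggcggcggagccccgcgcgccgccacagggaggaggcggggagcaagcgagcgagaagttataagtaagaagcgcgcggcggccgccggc

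The rest of the pathway was read through a list of 46 further Notch genes, of which 42 were tested. Dlk2, Dll3, Hes5 and Hes7 were under the filter. By genotype, 23 of the 42 averaged higher and 19 lower, with a median log2 difference of 0.013, and 0 passed an adjusted p of 0.05 by limma. At an unadjusted p under 0.05 there was 1, Rfng, a fringe glycosyltransferase that adds sugars to Notch, at 13.5 against 15.4 in Spry2FF mice (log2 difference -0.19, adjusted p = 0.8 by limma). No other receptor or ligand had an unadjusted p under 0.05, a level that 6.18% of all genes reached. Notch3, the receptor of vascular smooth muscle, ran from 0.264 to 0.911 over all mice, and Notch4, an endothelial receptor, from 1.51 to 5.39. Jag1 ran from 4.2 to 6.63, Jag2 from 0.422 to 2.6, and Dll3 was at most 0.81 and listed at 0 in 2 Spry2IEKO mice. Log2 differences by genotype were 0.04 for Notch3, -0.22 for Notch4, 0.06 for Jag1 and 0.08 for Jag2, with 95% intervals of -0.391 to 0.473, -0.763 to 0.324, -0.218 to 0.328 and -0.646 to 0.806. The linear mean of Jag2 was lower in Spry2IEKO mice, at 1.34 against 1.39.

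A second list held 31 other fate factors, of which 29 were tested. Of these, 20 averaged higher in Spry2IEKO mice and 9 lower, with a median log2 difference of 0.05, and 0 passed an adjusted p of 0.05 by limma. At an unadjusted p under 0.05 there were 2 higher and 3 lower, where 6.18% of all genes reached that level in either direction. Creb3l4, a secretory pathway factor, averaged 34.2 in Spry2IEKO and 24.5 in Spry2FF mice (log2 difference 0.49, adjusted p = 0.692 by limma). Nkx2-2, an enteroendocrine factor, averaged 1.49 and 0.779 (log2 difference 0.62, adjusted p = 0.76 by limma). Elf3 and Hnf4a, general epithelial factors, were on the lower side, with log2 differences of -0.22 and -0.21. By role, 8 of 9 enteroendocrine factors, 6 of 7 factors of goblet and secretory maturation, 1 of 3 tuft factors and 5 of 10 progenitor or other epithelial factors averaged higher, where 52.1% of all genes did.

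The litters were compared with genotype as a covariate, as litter B minus litter A. All library names of litter A share a prefix, and it differs from the prefix shared by litter B. Litter therefore cannot be told apart from any other grouping that the prefix marks, such as a processing batch. None of the 10 genes passed an adjusted p of 0.05 by limma, against 4.38% of all genes. An unadjusted p under 0.05 was reached by 5 of the 10, against 21.9% of all genes. Dll4, Spdef and Gfi1 averaged lower in litter B, and Notch1 and Klf4 higher. Higher values in litter B at that level made up 7.08% of all genes and lower ones 14.8%. The litters overlapped for every one of the 10, and did not for 3.72% of all genes. The median log2 difference was -0.13 over the 10 and -0.05 over all genes.

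Dll4 had the lowest unadjusted p. It ran from 3.85 to 5.77 in litter B and from 4.44 to 11.2 in litter A, and 3 litter B mice were below every litter A mouse (log2 difference -0.54, standard error 0.186, adjusted p = 0.114 by limma). Dll4 is a ligand of endothelial tip cells as well as of the crypt, and all 7 endothelial markers were lower in litter B, 6 of them with an adjusted p under 0.05 by limma. The summed level of the endothelial list ran from 32 to 41.9 in litter B and from 58 to 106.6 in litter A, without overlap. Its part in the Dll4 difference was not tested. Gfi1 gave -0.52 (adjusted p = 0.151 by limma), but 0.67 by its highest transcript alone. Spdef gave -0.34 (adjusted p = 0.122 by limma). With equal totals in all mice, Spdef gave -0.42 and passed (adjusted p = 0.0303 by limma). Klf4 averaged 314.1 ± 47.8 in litter B and 272.1 ± 24.7 in litter A (SD, n = 6 each), a log2 difference of 0.20 (adjusted p = 0.167 by limma). Epithelial markers were higher in litter B for 5 of 7, and 3 of the 7 had an unadjusted and 1 an adjusted p under 0.05 by limma in either direction. Absorptive markers were higher for 5 of 5, 4 with an unadjusted p under 0.05 and 0 adjusted. Summed levels ran from 6164 to 7939 in litter B and from 5381 to 6891 in litter A for epithelium, and from 2973 to 5447 and from 2017 to 3527 for absorptive cells. Their part in the Klf4 difference was not tested. The Notch1 sum gave 0.64 (adjusted p = 0.131 by limma), but its coding transcripts -0.0081. Atoh1 at -0.24, Notch2 at -0.30, Neurog3 at -0.03, Hes1 at -0.0071 and Dll1 at 0.05 had unadjusted p-values above 0.05. For Dll1 the coding transcripts gave -0.26 (adjusted p = 0.103 by limma), with 4 litter B mice below every litter A mouse.

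The genotype difference was compared between the litters by an interaction term. Among the 10 genes 0 had an adjusted or an unadjusted p under 0.05 by limma, against 0.0126% and 4.19% of all genes, and the lowest unadjusted p was 0.398, that of Neurog3. The log2 difference of Atoh1 was larger in litter B by 0.20 (95% interval -0.336 to 0.74), and that of Spdef was smaller there (-0.17, 95% interval -0.714 to 0.374).

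Across the pathway, litter went with lower values of many Notch genes. Of the 42 tested, 34 averaged lower in litter B and 8 higher, with a median log2 difference of -0.16. An unadjusted p under 0.05 was reached by 16, all lower, where 14.8% of all genes were lower at that level and 41.2% averaged higher in litter B. An adjusted p under 0.05 was reached by 2 of the 42, against 4.38% of all genes, and 1 of the 2 is described. Numb, an adaptor that sends Notch to endocytosis, averaged 34.4 in litter B and 45.7 in litter A (log2 difference -0.40, standard error 0.0728, adjusted p = 0.0167 by limma). By role, 6 of 10 processing enzymes, 3 of 5 members of the nuclear complex, 3 of 8 regulators of turnover, 2 of 5 glycosylation enzymes and 2 of 5 targets were lower at an unadjusted p under 0.05. None of 4 genes of ligand endocytosis, 2 receptors, 2 ligands and 1 atypical ligand were, and 3 of the 5 targets averaged higher. Among the other fate factors 1 of 29 passed, against the same 4.38% of all genes. It was Ehf, an epithelial Ets factor, at 171.3 in litter B and 204 in litter A (log2 difference -0.25, adjusted p = 0.0336 by limma). The litters did not overlap for Ehf, nor for Rbpj and Heyl, which were named after their values were seen. Rbpj, the DNA-binding partner of Notch, gave a log2 difference of -0.28 (adjusted p = 0.0655 by limma), and Heyl, a Notch target of vessels, -0.69 (adjusted p = 0.0522 by limma). Of all genes, 2.94% were lower without overlap. Numb passed in all 12 fits that left out 1 mouse. Ehf missed the threshold in 8 of them (adjusted p from 0.0512 to 0.079), those without Spry2FF replicates 2, 7, 9, 10 or 13 or Spry2IEKO replicates 4, 5 or 12. Neither Numb nor Ehf passed in Spry2FF mice alone or in Spry2IEKO mice alone. Over all alternative runs their adjusted p reached 0.3845 for Numb and 0.3579 for Ehf by limma.

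**Figure D4:**
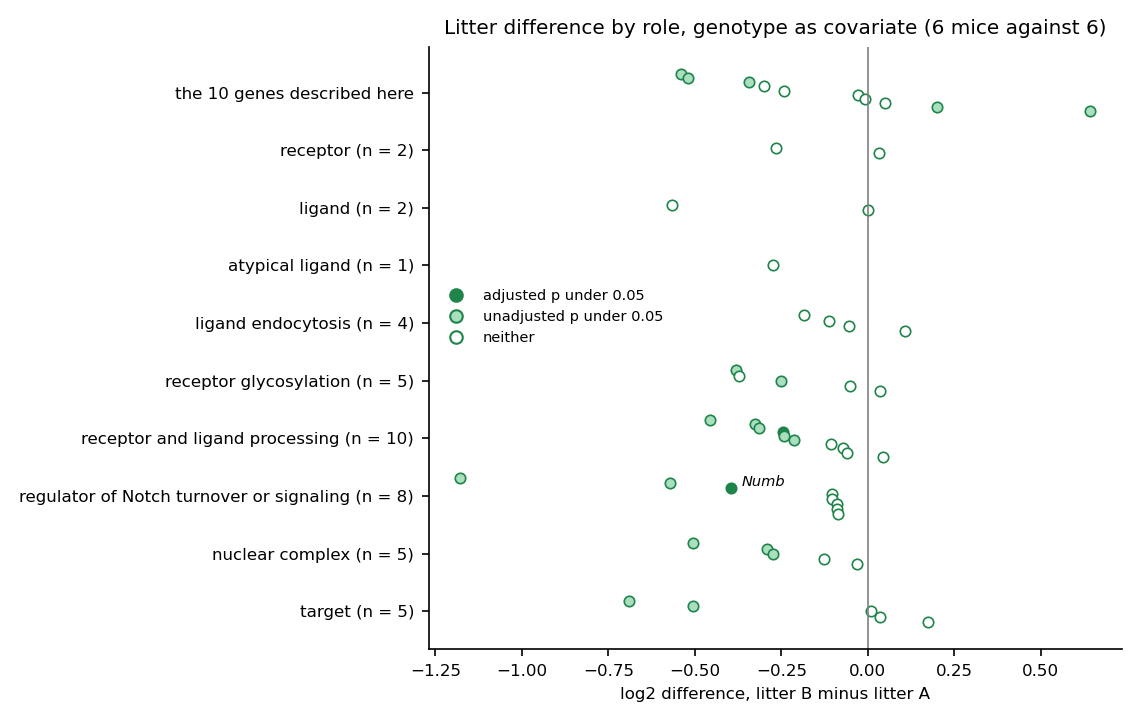
Log2 difference between litter B and litter A (horizontal axis), 1 point per gene, for the 10 genes and for 42 other Notch pathway genes grouped by role, with filled points for an adjusted p under 0.05, pale points for an unadjusted p under 0.05 and open points for neither. Points lie mostly left of 0, and 2 of the 42 are filled, with Numb labelled.

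How the 10 genes varied together was read from log2 values across the 12 mice, in 45 pairs, with a permutation test of 100000 draws and Benjamini-Hochberg adjustment over the pairs. Of these, 3 pairs passed, and all 3 held Gfi1. Gfi1 went with Spdef (Pearson r = 0.857, permutation p = 0.00035, adjusted p = 0.00788, Spearman rho = 0.916, permutation p = 0.0001, adjusted p = 0.0045). It went with Atoh1 (r = 0.821, permutation p = 0.001, adjusted p = 0.015, rho = 0.755, permutation p = 0.0066, adjusted p = 0.0594). It ran against Klf4 (r = -0.881, permutation p = 0.00021, adjusted p = 0.00788, rho = -0.867, permutation p = 0.00057, adjusted p = 0.0128). Within litter A and litter B the r of Gfi1 was 0.86 and 0.751 with Spdef, 0.711 and 0.845 with Atoh1, and -0.872 and -0.844 with Klf4. Without the 2 mice farthest from the median of the first gene of each pair, r was 0.805 for Spdef and Gfi1, 0.741 for Atoh1 and Gfi1, and -0.655 for Gfi1 and Klf4. All these correlations, and those with the cell type lists below, used sums of all transcripts. For Spdef, 57.6% of the sum came from transcripts without a coding sequence. Spry2IEKO replicate 12 was at 33.3 by the Spdef sum and at 9.01 by its coding transcripts. Correlations of Spdef by coding transcripts alone were not tested.

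Deviations from the mean of each genotype and litter were correlated too. There r was 0.621 for Gfi1 and Spdef, 0.591 for Gfi1 and Atoh1 and -0.748 for Gfi1 and Klf4, and the adjusted permutation p of these pairs was 0.259, 0.259 and 0.1. In this reading 1 other pair passed, Klf4 against Dll1 (r = -0.891, adjusted permutation p = 0.009), which had r = -0.544 (adjusted permutation p = 0.254) across all mice. A permutation of deviations treats them as free of the group means and gives p-values that are too small. Hes1 and Atoh1, repressor and target, had r = 0.393 (permutation p = 0.204, adjusted p = 0.575) and rho = 0.196 (permutation p = 0.541), and Hes1 with the Notch1 sum r = 0.013.

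**Figure D5:**
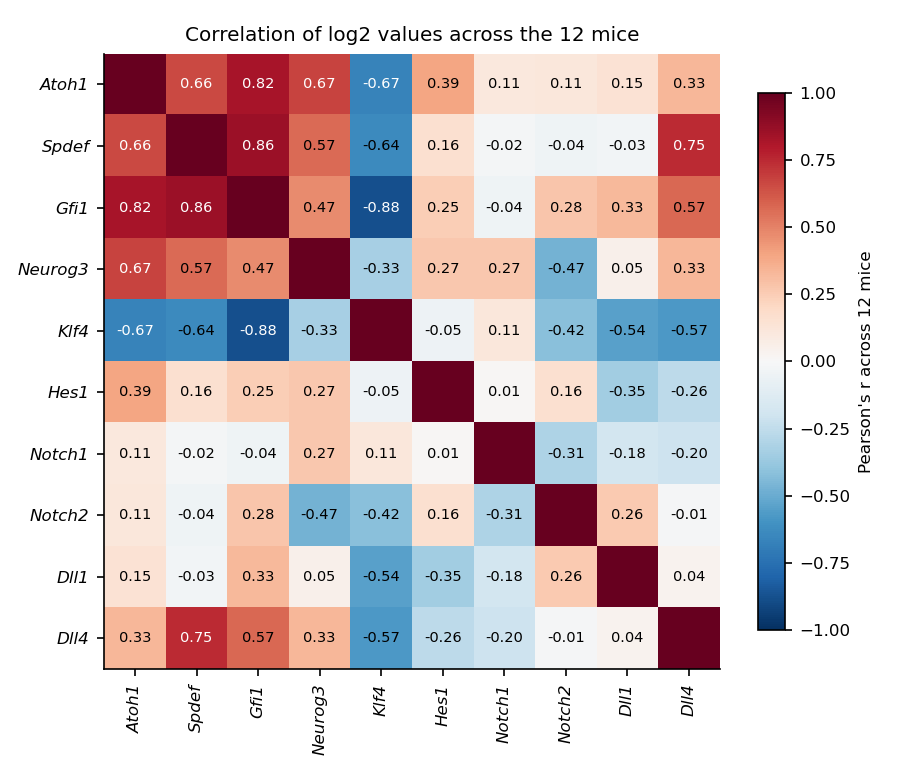
Pearson's r of log2(normalized TPM + 0.5) across the 12 mice for each pair of genes, from blue at -1 to red at 1, with the value in each cell. Atoh1, Spdef and Gfi1 form a block of r from 0.657 to 0.857, against which Klf4 has r from -0.881 to -0.638.

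Each gene was also set against the 10 cell type lists, each summarized as the mean z-score of its markers per mouse, in 100 relations. Of these, 12 passed an adjusted permutation p of 0.05, and 11 of the 12 belonged to Atoh1, Spdef, Gfi1 and Klf4. The number that passed was 3 with quantile normalization, 9 with a pseudocount of 1 and 13 with a pseudocount of 0.1. The goblet score went with Gfi1 (r = 0.854, permutation p = 0.00045, adjusted p = 0.0225, rho = 0.853), with Spdef (r = 0.841, permutation p = 0.0015, adjusted p = 0.0375, rho = 0.825), with Atoh1 (r = 0.813, permutation p = 0.00286, adjusted p = 0.0378, rho = 0.916) and with Neurog3 (r = 0.719, permutation p = 0.0034, adjusted p = 0.0378, rho = 0.741). The tuft score went with Atoh1 (r = 0.846, permutation p = 0.00099, adjusted p = 0.033, rho = 0.944), with Gfi1 (r = 0.776, adjusted permutation p = 0.0378) and with Spdef (r = 0.765, adjusted permutation p = 0.0492). Spdef also went with the enteroendocrine score (r = 0.799, adjusted permutation p = 0.0378), the relation among these that passed within genotype and litter too (r of deviations 0.851, adjusted permutation p = 0.0203).

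Klf4 followed the pan-epithelial score (r = 0.886, permutation p = 0.00032, adjusted p = 0.0225, rho = 0.783), with r = 0.903 in litter A, 0.929 in litter B and 0.803 for deviations from the group means (adjusted permutation p = 0.0427). It ran against the leukocyte score (r = -0.723, adjusted permutation p = 0.0461). Gfi1, which lymphoid and myeloid cells use as well, went with the leukocyte score (r = 0.736, adjusted permutation p = 0.0492) and against the epithelial one (r = -0.802, adjusted permutation p = 0.0378). The leukocyte list ran from 52.2 to 716.6 in summed level, and its share in Gfi1 was not tested. Hes1, Notch1, Notch2, Dll1 and Dll4 had no relation past the threshold across all mice. By deviations from the group means 6 relations passed, and 4 of them had not passed across all mice. These were Dll1 with the epithelial score (r of deviations -0.91, adjusted permutation p = 0.014), Dll1 with the endothelial score (0.808, adjusted permutation p = 0.0414), Dll4 with the enteroendocrine score (0.787, adjusted permutation p = 0.026) and Spdef with the smooth muscle score (-0.857, adjusted permutation p = 0.02). By rank, 5 of the 12 relations passed too, those of the goblet score with Atoh1, Spdef and Gfi1, of the tuft score with Atoh1 and of the leukocyte score with Klf4. All 12 had the same sign in both litters. Without the 2 mice farthest from the median, r was nearest to 0 for Gfi1 with the epithelial score (-0.514), Klf4 with the leukocyte score (-0.545) and Gfi1 with the leukocyte score (0.558), and was 0.708 for Atoh1 with the goblet score. Dll4 had r = 0.648 with the endothelial score (permutation p = 0.0209, adjusted p = 0.0951) and Notch2 r = 0.687 with the leukocyte score (permutation p = 0.0103, adjusted p = 0.0684).

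Genes whose log2 values were most like those of 3 members across the 12 mice were listed by Pearson r over all tested genes, as a description. For Atoh1 these were Igkv8-24 (r = 0.907), Cep70 (r = 0.886), Dlk1 (r = 0.877), Trpm5 (r = 0.87), the tuft cell channel, and Fcna (r = 0.866). For Hes1 they were Tcim (r = 0.891), Gm13259 (r = 0.837), Prickle4 (r = 0.824), Pde4a (r = 0.819) and Zfp3 (r = 0.814). For the Notch1 sum they were Dennd2d (r = 0.941), Tesc (r = 0.886), Amn1 (r = 0.881), Gm15914 (r = 0.857) and March7 (r = 0.855).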

How the data were processed

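Colon RNA of 12 mice was sequenced, and groups, litters and sexes follow the deposited labels. The authors' processing notes name CASAVA, kallisto, sleuth and mm10. Per transcript and mouse, the deposited signal is a TPM value from kallisto that the authors scaled a further time. Tests planned for plain TPM were used unchanged. The columns of the authors' own test results were not used. Labels and paper differ on age and on paired or single reads.

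Of 113974 rows, 781 repeated a transcript and were dropped, which left 113193. For 28 genes, names turned into dates were restored by Ensembl identifier. Transcripts were summed to 35241 genes. Positions and biotypes came from GENCODE M21, which matched 98.4% of transcripts. Promoter windows came from RefSeq, and protein sequences and a Hes1 window were not used here.

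The fits used limma 3.58.1 (R 4.3.3; lmFit, then eBayes with trend; two-sided; Benjamini-Hochberg over 15880 genes of mean 0.5 or more) on log2(normalized TPM + 0.5), so differences of genes near 0.5 are understated. Genotype was fitted alone, litter beside genotype, and their interaction. Correlations used 100000 permutations of the mice. Scripts were tested on simulated data. Other software was Python 3.11.15 with NumPy 2.4.6, SciPy 1.17.1, pandas 2.3.3 and matplotlib 3.10.9. Count models were not applied.

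Members and lists were chosen with earlier results of these data known. Named are all 10 genes, Notch3, Notch4, Dll3, Jag1, Jag2, Spry2, listed genes past an adjusted p of 0.05 (otherwise up to 3 largest rises and 3 largest falls with an unadjusted p under 0.05 per comparison), and the 5 genes most like Atoh1, Hes1 and Notch1. Other choices tried were the pseudocount, the filter, 2 other scalings, covariates, each litter or genotype alone, females alone, exact permutation, the highest transcript alone and leaving out each mouse. Fits of coding transcripts alone were added once the data had been seen. Results of some listed genes are not reported here.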

Additional observations from a re-analysis of the deposited data

Results flagged for a closer look

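In each genotype group of 6 mice, the gap of the highest or lowest mouse to its neighbor was set against the range of the group, for the 10 genes and for the coding transcripts of Notch1. Of 22 groups, 2 held a mouse far from the others, where chance gives about 1 in 20. Atoh1 was 27.9 in Spry2IEKO replicate 8, the male of that genotype, and from 38.8 to 42.1 in the other 5 Spry2IEKO mice. Without this mouse the log2 difference of Atoh1 was 0.47. Dll4 was 11.2 in Spry2FF replicate 7 and from 3.85 to 5.55 in the other 5 Spry2FF mice. Without this mouse the log2 difference of Dll4 was 0.38 by genotype and -0.37 by litter.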

How the results depend on the processing

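No pairing of single mice was possible because the replicate numbers of the labels are not shared between the genotypes. Litter could be fitted as a covariate of genotype. The log2 difference was then 0.39 for Atoh1, 0.65 for Gfi1 and 0.37 for Spdef (adjusted p = 0.456, 0.433 and 0.466 by limma). By genotype, and for the interaction, 0 of the 10 genes passed under every alternative run, 0 to 0 without 1 mouse, and likewise 0 of the other listed genes by genotype. By litter, 1 of the 10 genes passed with equal totals, Spdef at -0.42, which also moved the median of all genes from -0.05 to -0.12, and 0 to 0 did without 1 mouse. The 3 other listed genes that passed by litter became 1 with quantile normalization, 9 with equal totals, 7 with coding transcripts alone, 0 in Spry2FF mice alone and 0 in Spry2IEKO mice alone, where 3 mice face 3, and 1 to 5 without 1 mouse (1 without Spry2FF replicate 2, 7 or 9 or Spry2IEKO replicate 5, and 5 without Spry2IEKO replicate 8).

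The adjusted p of Atoh1 by genotype ran from 0.167, in females alone at a log2 difference of 0.60, to 0.999. Signs turned by genotype for Notch1 (-0.33 with the highest transcript alone and with coding transcripts alone), Notch2 (0.079 in litter A alone, 0.022 in females alone, -0.19 to 0.069 without 1 mouse) and Dll1 (-0.0090 with quantile normalization, -0.020 with equal totals, -0.039 with sex or with litter and sex as covariates, -0.10 in litter A alone, -0.12 in females alone, -0.084 with the highest transcript alone, -0.081 with coding transcripts alone, -0.089 to 0.10 without 1 mouse). Signs turned by litter for Gfi1 (0.67 with the highest transcript alone), Neurog3 (0.047 with quantile normalization, 0.21 in Spry2IEKO mice alone, -0.26 to 0.11 without 1 mouse), Hes1 (0.018 with quantile normalization, 0.075 in Spry2FF mice alone, -0.10 to 0.094 without 1 mouse), Notch1 (-0.0081 with the highest transcript and with coding transcripts alone) and Dll1 (-0.029 with equal totals, -0.055 in Spry2FF mice alone, -0.26 with the highest transcript and with coding transcripts alone, -0.056 to 0.16 without 1 mouse). Where transcripts were dropped, the values dropped account for the turn, and the other causes were not tested. The 3 pairs that passed became 1 with deviations from group means, a different pair. The 12 marker relations that passed became 3 with quantile normalization and 6 with deviations from group means. The values carry no read counts, so no detection limit is given for low genes such as Neurog3.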
